A study of Mus musculus with 12 samples.

Results

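The genes described here are 31 genes of sterol and fatty acid synthesis and its control, listed by their function in the pathway. All 31 were measured among the 19938 genes of the table, each by the probe set with the highest mean intensity that names that gene alone. They fall into 15 enzymes of sterol synthesis, 6 genes of sterol sensing and transport and 10 enzymes of fatty acid synthesis. RNA came from whole uterine horns and whole oviducts of pregnant mice, both flushed, with 3 biological replicates in each of 4 groups and a separate array for every sample. The oil uterus and oil oviduct groups received sesame oil under the skin (100 µl, 0 µg/kg estradiol) once a day from day 0.5 to day 2.5 of pregnancy. The E2 uterus and E2 oviduct groups received estradiol (E2), the main ovarian estrogen, in the same oil and on the same days at 10 µg/kg, or about 250 ng per mouse. All mice were dissected on day 3.5, when embryos normally have reached the uterus but have not implanted. All groups, the oil controls included, were pregnant, and their strain and age are not known here. The study asked what excess estrogen before implantation does to embryo transport and to the tissues that carry and receive the embryo.

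Cells make cholesterol from acetyl-CoA through mevalonate, isoprenoid diphosphates, squalene and lanosterol, and make fatty acids from the same acetyl-CoA through malonyl-CoA. Both routes are under the control of SREBP transcription factors, which sit in the endoplasmic reticulum bound to the escort protein SCAP and are held there by INSIG proteins while sterols are plentiful. When sterols run low, SCAP carries SREBP to the Golgi, where proteases release the part that enters the nucleus and switches on genes of synthesis and uptake. In the uterus, lipid synthesis supplies membranes to growing epithelium and stroma and the substrates of prostaglandins.

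The promoters of 4 of these genes are printed because their letters can be read beside the expression results below: Hmgcs1, Idi1 and Cyp51 are sterol synthesis genes that were lower in E2 uterus, and Insig1 was higher there. The sequences are RefSeq's for mouse assembly GRCm38.p6 and cover the 250 bases before the start of each gene, read in the direction of transcription. Capitals mark matches on either strand to TCACNCCAC, the letters of a classical sterol regulatory element, to CCAAT, the letters bound by the SREBP partner NF-Y, and to CACGTG, an E-box, which reads the same on both strands.
Hmgcs1: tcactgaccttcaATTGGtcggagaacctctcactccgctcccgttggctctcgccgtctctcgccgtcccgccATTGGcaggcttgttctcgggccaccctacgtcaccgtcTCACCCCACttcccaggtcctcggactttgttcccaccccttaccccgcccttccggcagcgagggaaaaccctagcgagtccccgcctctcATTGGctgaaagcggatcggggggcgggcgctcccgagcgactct
Idi1: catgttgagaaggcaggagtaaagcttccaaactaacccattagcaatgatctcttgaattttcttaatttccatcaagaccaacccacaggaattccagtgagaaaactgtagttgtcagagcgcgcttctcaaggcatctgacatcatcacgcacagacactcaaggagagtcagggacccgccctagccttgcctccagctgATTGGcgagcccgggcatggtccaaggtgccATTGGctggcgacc
Cyp51: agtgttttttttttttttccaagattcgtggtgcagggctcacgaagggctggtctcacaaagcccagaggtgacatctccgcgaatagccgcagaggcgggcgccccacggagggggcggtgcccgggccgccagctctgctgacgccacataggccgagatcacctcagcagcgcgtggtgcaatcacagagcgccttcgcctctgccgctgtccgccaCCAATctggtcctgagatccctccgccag
Insig1: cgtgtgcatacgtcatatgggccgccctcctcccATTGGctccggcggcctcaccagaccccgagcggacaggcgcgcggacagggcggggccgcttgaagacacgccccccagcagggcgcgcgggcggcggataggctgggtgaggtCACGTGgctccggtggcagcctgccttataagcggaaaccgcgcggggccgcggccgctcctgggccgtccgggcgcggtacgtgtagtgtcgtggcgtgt
They lie at chr13:119690101-119690350 on the plus strand (Hmgcs1), chr13:8885356-8885605 on the plus strand (Idi1), chr5:4104698-4104947 on the minus strand (Cyp51) and chr5:28071162-28071411 on the plus strand (Insig1), and no marked match overlaps another. The Hmgcs1 promoter holds TCACNCCAC beginning 137 bases before the start and CCAAT at 237, 176 and 45 bases before it. The Idi1 promoter holds CCAAT at 45 and 14 bases before the start, the Cyp51 promoter at 29, and the Insig1 promoter at 216, with CACGTG at 101. Promoters were matched for 24 of the 31 genes, 33 promoters in all. TCACNCCAC was in 1 of these 33 (3.03%), that of Hmgcs1, and in 1.05% of all 32851 promoters of the same length. CCAAT was in 20 of 33 (60.6%) and in 33.8% of all promoters, and CACGTG in 5 of 33 (15.2%; Dhcr7, Elovl5, Hsd17b7, Insig1 and Scap) and in 6.02% of all. These matches describe letters only and show no binding.

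Values below are log2 intensities, so a difference of 1 is a change of 2-fold, and each gene is compared only with itself. Array medians lay between 89.5 and 92.9 intensity units on all 12 arrays. Markers followed the tissue labels: 7 of 7 markers of ciliated cells were higher in oviduct than in uterus under both treatments. Of all genes 17.3% were higher in oviduct in oil mice and 15.2% in E2 mice. Hoxa11, a homeobox gene of uterine stroma, differed by -3.92 log2 units between oil oviduct and oil uterus. Of 9 Y-linked genes, which female tissue lacks, the brightest read log2 7.50 (Sry) and the next 5.36. No array of any member lay below 5.36, but Mvk, Pmvk, Mvd, Fdps, Lss, Cyp51, Tm7sf2 and Hsd17b7 lay below 7.50 on all 12 arrays, so the exact size of their fold changes is uncertain. In all, 16 of the 31 genes had at least 1 array below 7.50, among them Idi1, Sqle, Stard4 and Dhcr7, whose E2 uterus arrays all lay there, so the exact size of these falls is uncertain too. The replicates are biological per the labels, and since an exact test on 3 and 3 arrays has 0.10 as its smallest possible p, tests are those of limma across all genes. A gene is said to have risen or fallen where its Benjamini-Hochberg adjusted p was below 0.05. In whole tissue, fewer cells of a type and less RNA per cell cannot be told apart.

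In the uterus, E2 lowered 17 of the 31 genes (54.8%) and raised 2 (6.45%), Insig1 and Scd2, while 12 did not pass the test. Over all genes 26.7% were called in this comparison, 14.3% lower and 12.4% higher. The median log2 difference was -0.34 over the 31 genes and -0.00 over all genes. Under the alternatives the median over the members ran from -0.36 (without oil uterus replicate 1) to -0.24 (with array weights). It was -0.25 without both oil replicate 3 arrays. The falls comprised 10 of 15 sterol synthesis enzymes (median -0.43), 2 of 6 sensing and transport genes and 5 of 10 fatty acid enzymes. Measured intensities of Idi1 (30.2% of its oil level), Elovl6 (44.4%) and Acaca (55.0%) fell furthest. The E2 and oil arrays did not overlap for 23 of the 31 genes, 19 of them lower and 4 higher, against 40.5% of all genes without overlap and 21.5% lower without overlap. The count of falls depended on single arrays: it was 11 without oil uterus replicate 3 and 13 without E2 uterus replicate 1 or 2. The falls of Idi1, Fdps, Cyp51, Nsdhl, Hsd17b7, Srebf2, Stard4, Acaca, Elovl6 and Fads2 and the rise of Insig1 passed the test with any single array left out.

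**Figure D1:**
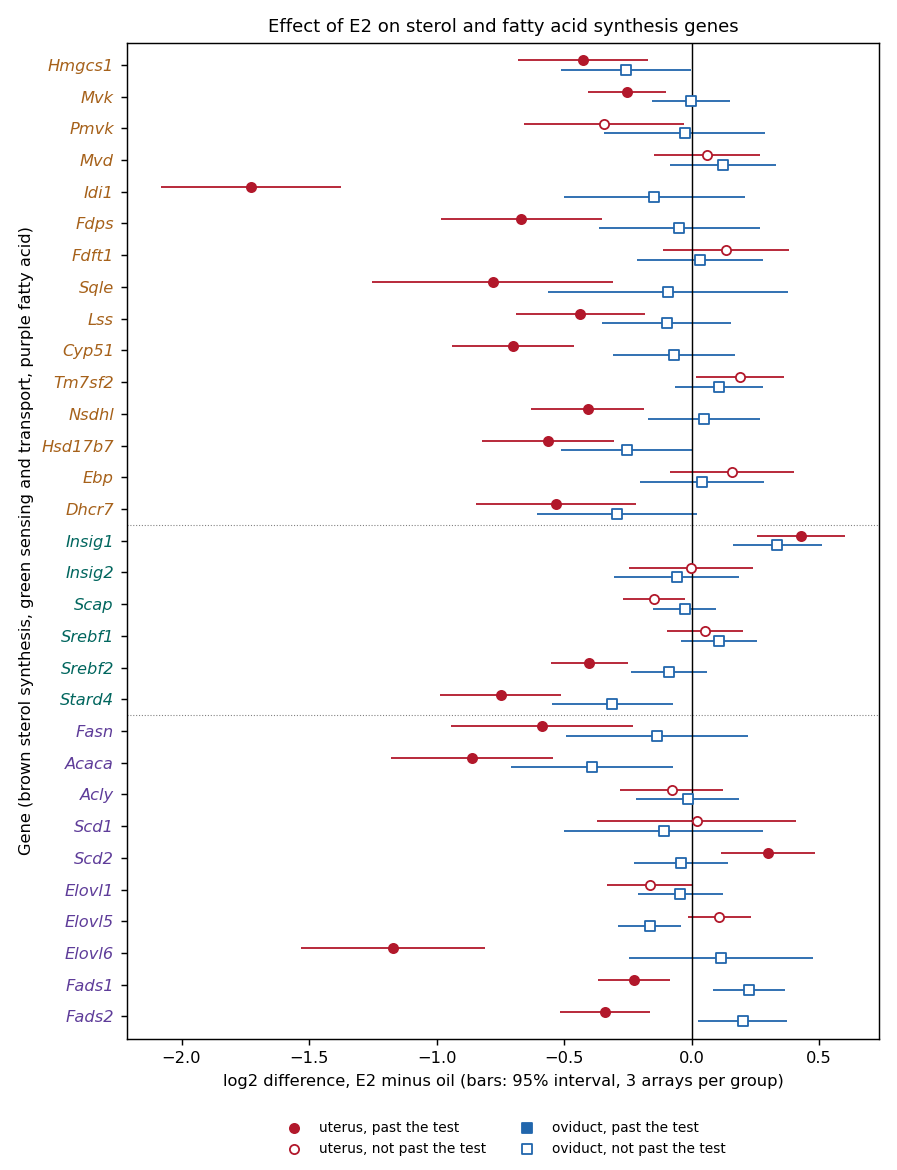
E2 minus oil in uterus (circles) and in oviduct (squares) as log2 differences with 95% intervals for the 31 genes, 3 arrays per group, with filled symbols where the adjusted p was below 0.05. In uterus 17 filled circles lie left of 0 and 2 right of it, and no square is filled.

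Mevalonate is made and activated by Hmgcs1, Mvk, Pmvk and Mvd and then turned into isoprenoids by Idi1 and Fdps. Idi1, which isomerises isopentenyl diphosphate into the primer of isoprenoid chains, read 7.72, 7.98 and 8.18 on the oil uterus arrays and 5.97, 6.24 and 6.48 on the E2 uterus arrays. The lowest oil array lay more than 1 log2 unit above the highest E2 array. Idi1 fell by 1.73 log2 units (SE 0.16, adjusted p = 1.59e-05), and a second probe set of the gene differed by -1.69. Fdps, which joins isoprene units into farnesyl diphosphate, read 7.29, 7.13 and 7.34 in oil uterus and 6.47, 6.70 and 6.58 in E2 uterus. It fell by 0.67 (SE 0.14, adjusted p = 0.0046), with no overlap between the groups.

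Hmgcs1, the cytosolic synthase that makes HMG-CoA, read 7.83, 8.17 and 8.22 in oil uterus and 7.49, 7.73 and 7.72 in E2 uterus. Oil replicate 1 was the lowest oil array and lay close above the E2 arrays. Hmgcs1 fell by 0.43 (SE 0.12, adjusted p = 0.0177), but the adjusted p was 0.0656 without oil uterus replicate 2, 0.0683 without oil uterus replicate 3 and 0.0769 without E2 uterus replicate 1. With arrays weighted by their quality the difference was -0.25 (adjusted p = 0.0409). Mvk, mevalonate kinase, read 7.29 to 7.33 in oil uterus and 7.04 to 7.07 in E2 uterus. Its arrays were close together within each group, and it fell by 0.25 (SE 0.07, adjusted p = 0.0173, and 0.0517 without E2 uterus replicate 2). The other mevalonate enzymes did not pass the test. Pmvk, phosphomevalonate kinase, differed by -0.34 (SE 0.14, adjusted p = 0.105), with oil replicate 3 at 6.93 and the other oil arrays at 6.44 and 6.28. Mvd, mevalonate diphosphate decarboxylase, differed by 0.06 (95% interval -0.15 to 0.27).

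Squalene and its cyclisation involve Fdft1, Sqle and Lss. Sqle, squalene epoxidase, a rate-controlling oxygenase of the pathway, read 7.27, 7.16 and 8.00 in oil uterus and 6.67, 6.74 and 6.69 in E2 uterus. Oil replicate 3 stood well above the other oil arrays, and the E2 arrays lay together below all of them. Sqle fell by 0.78 (SE 0.22, adjusted p = 0.0185). Without oil uterus replicate 3 the difference was -0.52 (adjusted p = 0.0569), and without E2 uterus replicate 1 it was -0.76 (adjusted p = 0.0566). Lss, which folds squalene epoxide into lanosterol, read 6.43, 6.47 and 6.81 in oil uterus and 6.03, 6.19 and 6.18 in E2 uterus. It fell by 0.44 (SE 0.12, adjusted p = 0.0147, and 0.0531 without oil uterus replicate 3 or 0.0612 without E2 uterus replicate 1). Fdft1, squalene synthase, which commits farnesyl diphosphate to sterols, differed by 0.14 (95% interval -0.11 to 0.38), and its second probe set by 0.11.

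Lanosterol is converted to cholesterol by Cyp51, Tm7sf2, Nsdhl, Hsd17b7, Ebp and Dhcr7. Cyp51, lanosterol demethylase, read 7.00, 7.16 and 7.46 in oil uterus and 6.58, 6.44 and 6.50 in E2 uterus. Every E2 array lay below every oil array, and Cyp51 fell by 0.70 (SE 0.11, adjusted p = 0.000566). Hsd17b7, a sterol ketone reductase that can also reduce estrone to E2, read 6.58, 6.38 and 6.84 in oil uterus and 6.05, 5.93 and 6.11 in E2 uterus. The groups did not overlap, and Hsd17b7 fell by 0.56 (SE 0.12, adjusted p = 0.00393). Nsdhl, a dehydrogenase that helps remove methyl groups from the sterol ring, fell by 0.41 (SE 0.10, adjusted p = 0.0102). Dhcr7, which reduces 7-dehydrocholesterol to cholesterol, read 7.52, 7.34 and 7.63 in oil uterus and 7.08, 6.89 and 6.94 in E2 uterus. It fell by 0.53 (SE 0.14, adjusted p = 0.0161, and 0.0598 without oil uterus replicate 3 or 0.0603 without E2 uterus replicate 2). Tm7sf2, a sterol reductase acting after Cyp51, went the other way without passing the test, at 0.19 (SE 0.08, adjusted p = 0.0998). Its E2 arrays (6.80 to 6.85) all lay above its oil arrays (6.48 to 6.73). Ebp, the sterol isomerase, differed by 0.16 (95% interval -0.08 to 0.40).

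Among genes of sensing and transport, 1 rose, 2 fell and 3 did not pass the test. Insig1, the membrane protein that retains SCAP and SREBP in the endoplasmic reticulum, read 7.86, 7.90 and 8.07 in oil uterus and 8.30, 8.39 and 8.43 in E2 uterus. All E2 arrays lay above all oil arrays, and Insig1 rose by 0.43 (SE 0.08, adjusted p = 0.00178). Srebf2, which encodes the SREBP that favours sterol genes, read 8.30, 8.22 and 8.39 in oil uterus and 7.85, 7.90 and 7.95 in E2 uterus. It fell by 0.40 (SE 0.07, adjusted p = 0.0011), with all E2 arrays below all oil arrays. Stard4, a carrier that moves cholesterol between membranes, read 7.23, 7.35 and 7.63 in oil uterus and 6.70, 6.73 and 6.53 in E2 uterus. Stard4 fell by 0.75 (SE 0.11, adjusted p = 0.000344), to 59.5% of its oil level. Scap, the escort protein, differed by -0.15 (SE 0.06, adjusted p = 0.0752), although its E2 arrays all lay below its oil arrays. The paralog Insig2 differed by -0.00 (95% interval -0.25 to 0.24), and Srebf1, whose product favours fatty acid genes, by 0.05 (95% interval -0.10 to 0.20).

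**Figure D2:**
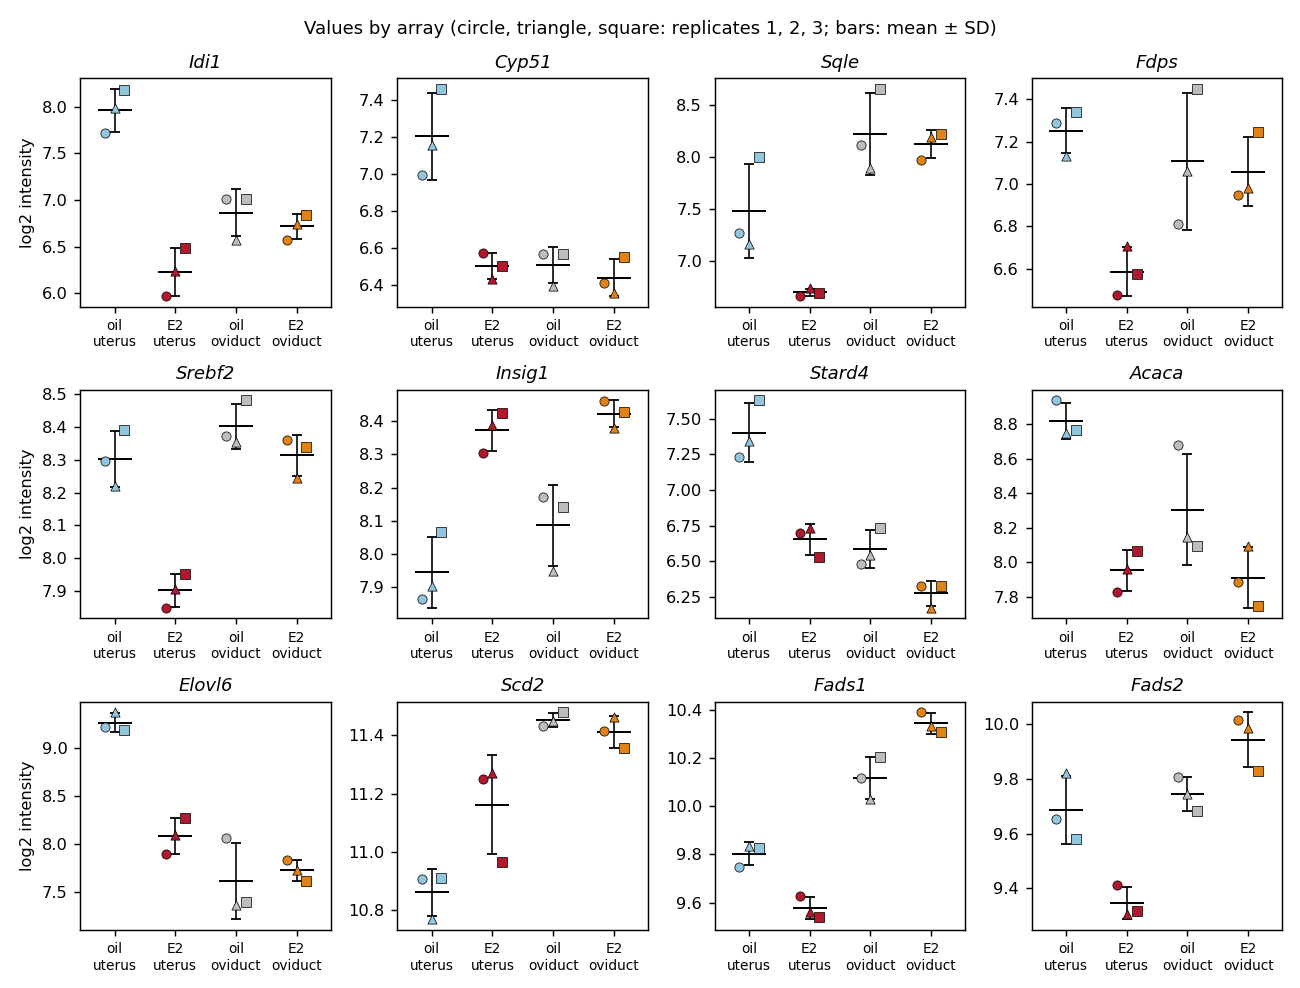
Log2 intensity on every array for 12 of the genes, with a mark for each replicate and bars for the mean ± SD of 3 arrays. Idi1, Cyp51, Sqle, Fdps, Srebf2, Stard4, Acaca, Elovl6, Fads1 and Fads2 are lower in E2 than in oil uterus, Insig1 and Scd2 are higher, and Fads1 and Fads2 lie highest in E2 oviduct. Each panel has its own vertical scale, which does not start at 0.

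Fatty acid synthesis starts with Acly, Acaca and Fasn. Acaca, the carboxylase that makes malonyl-CoA and so commits carbon to fatty acids, read 8.94, 8.75 and 8.77 in oil uterus and 7.83, 7.96 and 8.07 in E2 uterus. The 2 groups were well apart. Acaca fell by 0.86 (SE 0.15, adjusted p = 0.000964), and its second probe set differed by -1.18. Fasn, the synthase that builds palmitate, read 9.40, 9.13 and 9.55 in oil uterus and 8.76, 8.72 and 8.84 in E2 uterus. All E2 arrays lay below all oil arrays, and Fasn fell by 0.59 (SE 0.16, adjusted p = 0.0188). Its adjusted p was 0.0558 without oil uterus replicate 1, 0.0723 without oil uterus replicate 3, 0.0544 without E2 uterus replicate 1 and 0.0615 without E2 uterus replicate 2. Acly, which supplies cytosolic acetyl-CoA from citrate, differed by -0.08 (95% interval -0.28 to 0.12).

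Chain elongation and desaturation were less uniform. Elovl6, which extends palmitate to stearate, read 9.22, 9.37 and 9.19 in oil uterus and 7.90, 8.09 and 8.27 in E2 uterus. It fell by 1.17 (SE 0.16, adjusted p = 0.000285), a 2.25-fold difference with no overlap. The desaturases of polyunsaturated fatty acids both fell. Fads2 read 9.66, 9.82 and 9.58 in oil uterus and 9.41, 9.31 and 9.32 in E2 uterus and fell by 0.34 (SE 0.08, adjusted p = 0.00781). Fads1 fell by 0.23 (SE 0.06, adjusted p = 0.022), but its adjusted p was 0.0689 without oil uterus replicate 2, 0.0596 without oil uterus replicate 3, 0.0713 without E2 uterus replicate 2 and 0.0653 without E2 uterus replicate 3. In the fit of the 6 uterine arrays alone it was 0.0532. Scd2, a stearoyl-CoA desaturase that makes monounsaturated fatty acids, read 10.91, 10.77 and 10.91 in oil uterus and 11.25, 11.27 and 10.97 in E2 uterus. E2 replicate 3 lay just above the oil arrays, and Scd2 rose by 0.30 (SE 0.08, adjusted p = 0.0198). That rise did not pass in the fit of the 6 uterine arrays alone (adjusted p = 0.0691), nor without oil uterus replicate 2 (0.077), E2 uterus replicate 1 (0.0789) or E2 uterus replicate 2 (0.0886). Its paralog Scd1 differed by 0.02 (95% interval -0.37 to 0.41). Elovl1, an elongase of very long chains, differed by -0.16 (adjusted p = 0.146), and Elovl5, which elongates polyunsaturated chains, by 0.11 (adjusted p = 0.20).

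Cell type markers were counted in the same uterine comparison, in which 12.4% of all genes rose and 14.3% fell. Epithelial markers rose in 10 of 11 members, with summed intensities of 4522 to 5264 in oil and 9530 to 10790 in E2 uterus. Stromal markers fell in 5 of 10 and rose in 0 by limma (19860 to 20730 in oil and 18070 to 18510 in E2). Endothelial markers fell in 5 of 6 and rose in 1 (4118 to 4741 and 2816 to 3106), macrophage markers rose in 5 of 8 (2224 to 2668 and 3796 to 4262), and smooth muscle markers rose in 3 of 8 (14430 to 19820 and 19900 to 20540). Adipocyte markers, which bear on the fatty acid genes, rose in 2 of 10 (20%, against 12.4% of all genes). Their sums were 709.1 to 905.0 in oil and 976.0, 881.6 and 2283 in E2, the last in replicate 3. No marker of these lists read 0. The part of these shifts in the falls of lipid genes was not tested.

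The oil arrays of replicate 3 carried the highest values of many sterol genes in both tissues. In uterus, 14 of 15 sterol synthesis genes were highest on oil replicate 3 among the oil arrays, against 8301 of all 19938 genes. Over the 15 genes that array lay at a median of 0.22 above the mean of the other 2, against 0.02 over all genes. In oviduct, 11 of 15 were highest on oil replicate 3, against 6965 of all 19938 genes. The median over the 15 genes was 0.21 above the others, against -0.01 over all genes. With each gene set against its 12-array mean, the median of the sterol synthesis genes was 0.04, 0.03 and 0.32 on the oil uterus arrays and -0.23, -0.24 and -0.16 on the E2 uterus arrays. Oil replicate 3 was thus the highest uterine array, and the E2 arrays lay below all 3 oil arrays. Sqle was displaced furthest in oil replicate 3, by 0.78 in uterus and 0.65 in oviduct. Cell type markers stood apart on the same arrays. Summed smooth muscle markers were 19820 on oil uterus replicate 3 and 15510 and 14430 on the other oil uterus arrays. On oil oviduct replicate 3, summed ciliated cell markers were 5021 (2925 and 2370 on the others), macrophage markers 1542 (2400 and 2276) and luteal and ovarian steroidogenic markers 5197 (700.9 and 575.5), and the part of these signals in the sterol genes was not tested. With both oil replicate 3 arrays left out, 16 of the 31 genes fell in uterus and 3 rose, with Fasn lost from the falls (adjusted p = 0.0647) and Tm7sf2 joining the rises (0.24, adjusted p = 0.0494), among 28.0% of all genes called. All 10 sterol synthesis genes named above as fallen were among those 16.

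**Figure D3:**
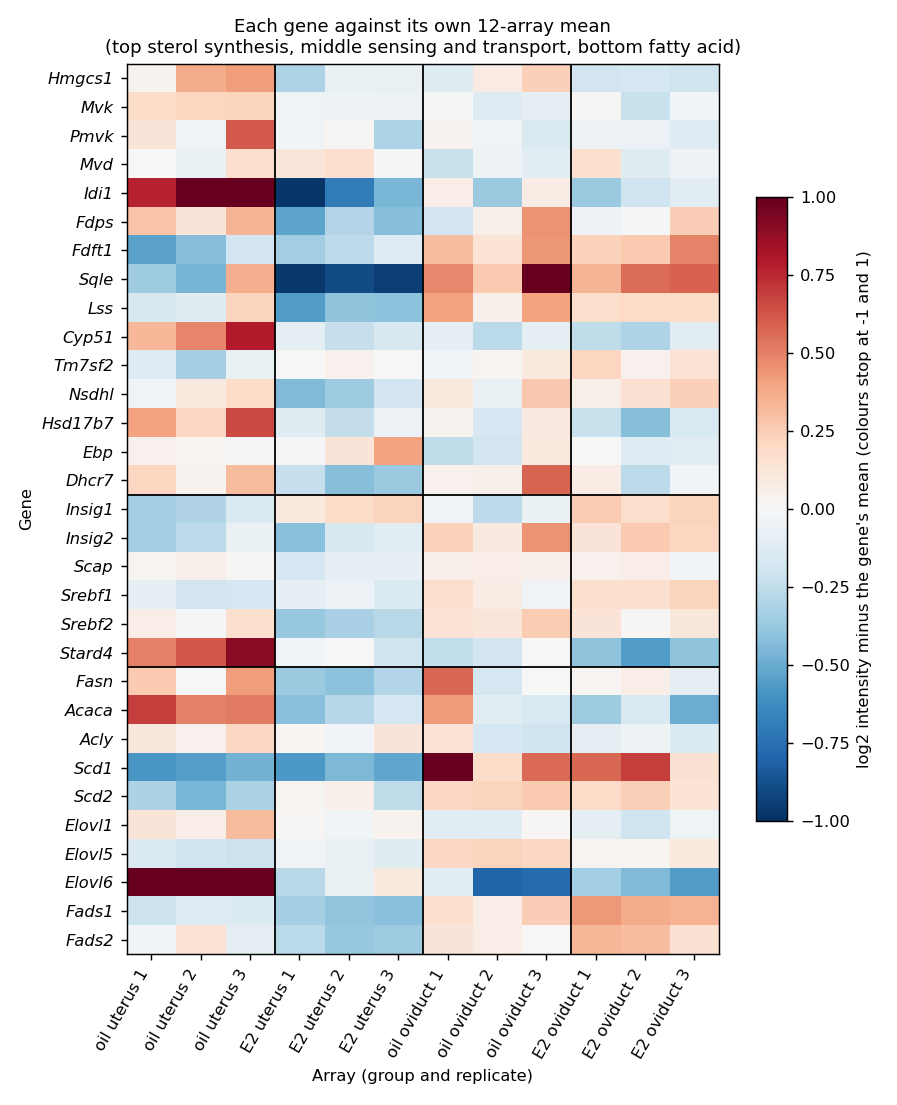
Each of the 31 genes on each of the 12 arrays as log2 intensity minus the gene's own mean over all arrays, in red above and blue below that mean, with colours stopping at 1 unit. The oil uterus columns are red for most sterol synthesis genes and deepest in replicate 3, while the E2 uterus columns are blue for most.

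In the oviduct, E2 raised 0 and lowered 0 of the 31 genes by limma, against 0.291% of all genes called, 0.16% higher and 0.13% lower. At an unadjusted p under 0.05 there were 3 genes higher and 4 lower (10.5% of all genes reached it in either direction), and the arrays did not overlap for 6 genes, 3 higher and 3 lower, against 17.4% of all genes. The median log2 difference was -0.04 over the 31 genes and -0.01 over all genes. Insig1 read 8.17, 7.95 and 8.14 in oil oviduct and 8.46, 8.38 and 8.43 in E2 oviduct. Its groups did not overlap, and it differed by 0.34 (SE 0.08, adjusted p = 0.14). It passed the test after quantile normalisation (0.35, adjusted p = 0.0495) and with array weights (0.31, adjusted p = 0.0476). Fads1 differed by 0.23 (adjusted p = 0.234) and Fads2 by 0.20 (adjusted p = 0.408), both with all E2 arrays above all oil arrays. The 4 lower genes were Hmgcs1 (-0.26), Stard4 (-0.31), Acaca (-0.39) and Elovl5 (-0.16), with adjusted p-values from 0.321 to 0.473. Idi1, the gene with the largest uterine fall, read 7.01, 6.57 and 7.02 in oil oviduct and 6.57, 6.75 and 6.84 in E2 oviduct, groups that overlapped, and differed by -0.15 (95% interval -0.50 to 0.21). Elovl6 differed by 0.11 (95% interval -0.25 to 0.47).

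Spread between the oil oviduct arrays was wide for several fatty acid enzymes and some sterol enzymes. Oil oviduct replicate 1 was the highest of its group for Fasn (9.70 against 8.96 and 9.14), Acaca (8.68 against 8.15 and 8.09), Elovl6 (8.07 against 7.37 and 7.40) and Scd1 (10.30 against 9.49 and 9.88). The SDs of these genes in oil oviduct were 0.39, 0.32, 0.39 and 0.41, and that of Acly was 0.19. Sqle, Fdps and Dhcr7, highest on replicate 3, had SDs of 0.39, 0.32 and 0.31 in that group. Summed adipocyte markers were 2942 on oil oviduct replicate 1 and 1980 and 2181 on the other oil oviduct arrays, and 3781, 3376 and 2137 in E2 oviduct. The part of the adipocyte signal in Fasn, Acaca, Elovl6 and Scd1 was not tested.

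Whether E2 acted differently in the tissues was tested as the uterine minus the oviductal difference. It was called for 6 of the 31 genes (19.4%), 5 of them more negative in uterus and 1 more positive, against 11.5% of all genes (5.77% lower and 5.71% higher). The tissues differed by -1.58 for Idi1 (SE 0.23, adjusted p = 0.00106) and by -1.29 for Elovl6 (SE 0.23, adjusted p = 0.00427). For Fads1 and Fads2 the E2 arrays were lower than oil in uterus and higher than oil in oviduct, without overlap in either tissue. In the oviduct, Fads1 read 10.12, 10.03 and 10.20 with oil and 10.39, 10.33 and 10.31 with E2, and Fads2 read 9.81, 9.74 and 9.68 with oil and 10.02, 9.99 and 9.83 with E2. Their differences between tissues were -0.45 (SE 0.09, adjusted p = 0.00803) and -0.54 (SE 0.11, adjusted p = 0.00993). These 4 calls held with any single array left out.

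Cyp51 gave -0.63 (SE 0.15, adjusted p = 0.0214), and its adjusted p was 0.0569 without E2 uterus replicate 2, 0.0503 without oil oviduct replicate 2 and 0.0606 without E2 oviduct replicate 3. Elovl5 gave 0.27 (SE 0.08, adjusted p = 0.0484), with E2 arrays above oil in uterus (10.36 to 10.45 against 10.27 to 10.34) and below oil in oviduct (10.51 to 10.59 against 10.69 to 10.71). The Elovl5 call was lost in 17 of 22 alternatives, among them the loss of any single array (adjusted p from 0.0528 without E2 uterus replicate 3 to 0.108 without E2 oviduct replicate 2). Other genes that fell in uterus gave differences between tissues that did not pass, among them Fdps at -0.62 (adjusted p = 0.0754), Nsdhl at -0.46 (0.0624), Srebf2 at -0.31 (0.0614), Stard4 at -0.44 (0.0951), Sqle at -0.69 (0.197) and Acaca at -0.47 (0.188). Some of these passed under alternatives: Nsdhl in 9 of 22 (adjusted p from 0.00886 to 0.0487), Srebf2 in 7 (0.00777 to 0.0429), Fdps in 4 (0.00563 to 0.0487), Sqle in 3, among them the replicate block (0.00724), Acaca in 2, among them without oil oviduct replicate 1 (0.021), and Stard4 in 1 (0.0442). Whether the effects of E2 on these genes differ between the tissues thus depended on the setting. The Insig1 difference was 0.09 (95% interval -0.15 to 0.34). Without both oil replicate 3 arrays, 8 genes were called more negative in uterus, with Fdps, Sqle and Nsdhl added, and 0 more positive. Without oil oviduct replicate 3 alone that count was 8 as well.

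The tissues differed in the oil mice for 16 of the 31 genes (51.6%), 8 higher and 8 lower in oviduct, against 38.7% of all genes (17.3% higher and 21.5% lower). Scd1 read 10.30, 9.49 and 9.88 in oil oviduct and 8.72, 8.76 and 8.84 in oil uterus. It was 1.12 higher in oviduct (SE 0.18, adjusted p = 0.000363), and Scd2 was 0.59 higher (SE 0.08, adjusted p = 0.000153). Fdft1 (0.68), Insig2 (0.49), Elovl5 (0.40) and Fads1 (0.31) were also higher in oviduct, with adjusted p-values of 0.000463, 0.00434, 0.000148 and 0.0021. Elovl6 read 8.07, 7.37 and 7.40 in oil oviduct and at least 9.19 on every oil uterus array, and was lower in oviduct by a difference of -1.65 (SE 0.16, adjusted p = 9.62e-06). Also lower in oviduct were Idi1 (-1.09, SE 0.16, adjusted p = 0.000199), Stard4 (-0.82, 8.79e-05), Cyp51 (-0.69, 0.000316), Hsd17b7 (-0.44, 0.0115) and Mvk (-0.29, 0.00617).

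The remaining 4 calls in oil mice rested on single arrays. Sqle was 0.74 higher in oviduct (adjusted p = 0.0168), although its arrays overlapped, and 0.52 higher without oil oviduct replicate 3 (0.0617), 0.64 without oil uterus replicate 1 (0.0665) and 0.58 without oil uterus replicate 2 (0.0722). Srebf1 was 0.22 higher (adjusted p = 0.0213), with adjusted p-values of 0.0687 without oil uterus replicate 2, 0.0565 without oil uterus replicate 3, 0.0917 without oil oviduct replicate 1 and 0.0506 without oil oviduct replicate 2. Acaca was lower in oviduct (-0.51, adjusted p = 0.0145), and its adjusted p was 0.057 without oil uterus replicate 1, 0.0576 without oil oviduct replicate 2 and 0.0554 without oil oviduct replicate 3. Elovl1 was lower as well (-0.24, adjusted p = 0.0281), and lost its call without oil uterus replicate 3 (0.107), oil oviduct replicate 1 (0.0851) or oil oviduct replicate 2 (0.0807). In the fit of the 6 oil arrays alone, Sqle (0.0766), Srebf1 (0.0829) and Elovl1 (0.0882) did not pass, and without both oil replicate 3 arrays Acaca (0.0735) and Elovl1 (0.0555) did not. Adipocyte markers were higher in oviduct than in uterus for 8 of 10 genes under both treatments, and epithelial markers for 10 of 11 in oil mice. In oil mice stromal markers were lower for 8 of 10, endothelial markers for 5 of 6 and macrophage markers for 2 of 8. Of all genes 17.3% were higher and 21.5% lower there. The part of these markers in the tissue differences was not tested.

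**Figure D4:**
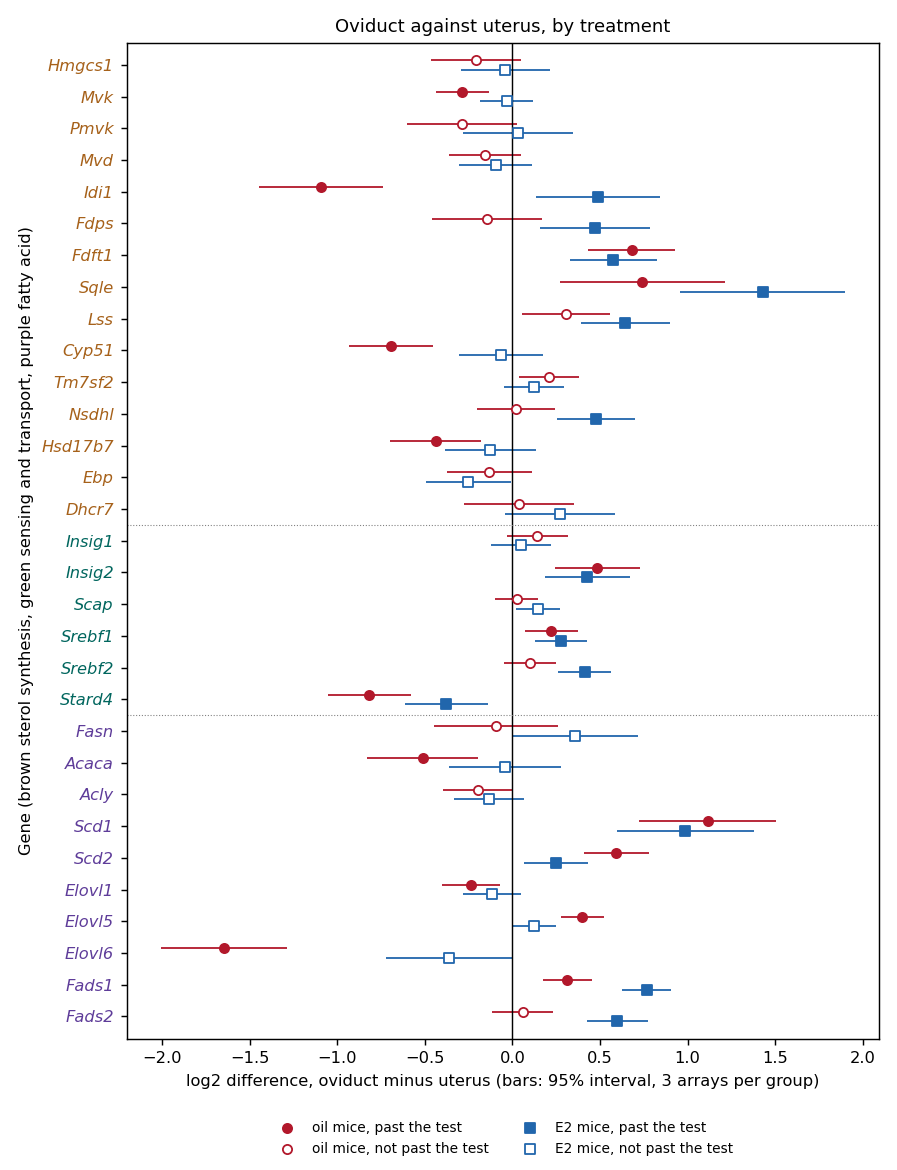
Oviduct minus uterus as log2 differences with 95% intervals for the 31 genes in oil mice (circles) and E2 mice (squares), 3 arrays per group, filled where the adjusted p was below 0.05. Idi1 is filled on opposite sides of 0 (-1.09 in oil and 0.49 in E2 mice), and the 13 filled squares right of 0 stand against 1 to the left, that of Stard4.

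In E2 mice the tissue comparison called 14 of the 31 genes (45.2%), 13 higher and 1 lower in oviduct, against 34.1% of all genes (15.2% higher and 18.9% lower). Sqle read 7.97, 8.19 and 8.22 in E2 oviduct and 6.67, 6.74 and 6.69 in E2 uterus, and was 1.43 higher in oviduct (SE 0.22, adjusted p = 0.00031). Other sterol synthesis genes higher in oviduct were Lss (0.64, adjusted p = 0.00106), Fdft1 (0.58, 0.00186), Nsdhl (0.48, 0.00312), Idi1 (0.49, 0.0353) and Fdps (0.47, 0.0237). Idi1 was thus higher in oviduct than in uterus of E2 mice and lower in oviduct of oil mice. The Idi1 call in E2 mice was lost without E2 uterus replicate 1 (0.36, adjusted p = 0.138), E2 uterus replicate 2 (0.0799), E2 oviduct replicate 2 (0.0897) or E2 oviduct replicate 3 (0.116). The Fdps call was lost without E2 uterus replicate 1 (0.0813), E2 uterus replicate 3 (0.0595) or E2 oviduct replicate 3 (0.0992). Both tissue comparisons share their arrays with the E2 comparisons above, so they describe the same levels from another side. In E2 mice, stromal markers were lower in oviduct for 7 of 10 genes and higher for 1. Smooth muscle markers were lower for 5 of 8, macrophage markers for 5 of 8 and endothelial markers for 5 of 6. Adipocyte markers were higher for 8 of 10, and epithelial markers went both ways, 3 of 11 higher and 3 lower. The part of these markers in the tissue differences was not tested.

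Of the regulators, Srebf2 was 0.41 higher in E2 oviduct than in E2 uterus (SE 0.07, adjusted p = 0.00063), Insig2 0.43 higher (adjusted p = 0.0106) and Srebf1 0.28 higher (adjusted p = 0.00747). Stard4 read 6.32, 6.17 and 6.33 in E2 oviduct against 6.53 to 6.73 in E2 uterus. It was lower in oviduct (-0.38, adjusted p = 0.0175), and that call was lost without E2 uterus replicate 1 (0.0548), E2 uterus replicate 2 (0.068) or E2 oviduct replicate 2 (0.0713). Without oil oviduct replicate 1, 2 genes were called lower. Fads1 was 0.77 higher in oviduct (SE 0.06, adjusted p = 3.7e-06), Fads2 0.60 higher (SE 0.08, adjusted p = 0.000129) and Scd1 0.99 higher (SE 0.18, adjusted p = 0.00111). Scd2 was 0.25 higher (adjusted p = 0.0391), and was 0.15 higher without E2 uterus replicate 3 (adjusted p = 0.136) and 0.15 with array weights (0.0443). The Scd2 call was also lost without oil uterus replicate 1, oil oviduct replicate 1 or any E2 oviduct replicate (adjusted p from 0.051 to 0.121), after centring (0.0703) or quantile normalisation (0.0777) and in the fit of the 6 E2 arrays alone (0.0698). Elovl6 differed by -0.36 (adjusted p = 0.12), Cyp51 by -0.06 (95% interval -0.30 to 0.18) and Acaca by -0.04 (95% interval -0.36 to 0.28).

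Neighbouring genes of lipid metabolism, from lists made by function, were counted in the same uterine comparison, in which 26.7% of all genes were called. Of 6 further sterol synthesis genes, 3 fell and 0 rose by limma, namely the methyl sterol oxidase Msmo1 (-0.66, SE 0.18, adjusted p = 0.0144), the sterol reductase and lamin receptor Lbr (-0.45, SE 0.07) and Erg28 (-0.22, SE 0.07). In the list of SREBP processing and degradation, 4 of 7 genes fell and 0 rose by limma, namely Tmem97, Mbtps1, Nfyc and Faf2. Mbtps1, the protease that makes the initial cut in SREBP, differed by -0.38 (SE 0.06). Tmem97 and Nfyc neither cut nor degrade SREBP. Tmem97, a sterol-responsive membrane protein, differed by -1.28 (SE 0.07, adjusted p = 2.34e-07) and Nfyc, an NF-Y subunit, by -0.33 (SE 0.06). In the list of sterol uptake and storage, 5 of 9 genes rose and 0 fell by limma, namely Nceh1, Mylip, Npc2, Npc1 and Stard3. None of the 5 is an uptake receptor or an enzyme that stores sterol. Nceh1, a cholesteryl ester hydrolase, rose by 1.30 (SE 0.09), Mylip, the ligase that degrades lipoprotein receptors, by 1.12 (SE 0.09), and Npc2, which moves cholesterol out of lysosomes, by 0.55 (SE 0.08). In sterol export and its control by LXR, 3 of 8 genes rose and 2 fell, with the cholesterol exporters Abca1 at 1.04 (SE 0.13, adjusted p = 0.00011) and Abcg1 at 0.92 (SE 0.10) and the oxysterol hydroxylase Cyp7b1 at -0.59 (SE 0.13). Of 19 other fatty acid synthesis genes, 2 rose and 3 fell (26.3% called, close to the share over all genes), among them the elongation cycle enzymes Hacd3 (-0.76, SE 0.14) and Hsd17b12 (-0.65, SE 0.10) and the elongase Elovl7 (0.64, SE 0.13). In the oviduct 0 genes of these 5 lists were called by limma, against 0.291% of all genes. At an unadjusted p under 0.05 there were 4 higher and 2 lower, and 10.5% of all genes reached it in either direction.

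**Figure D5:**
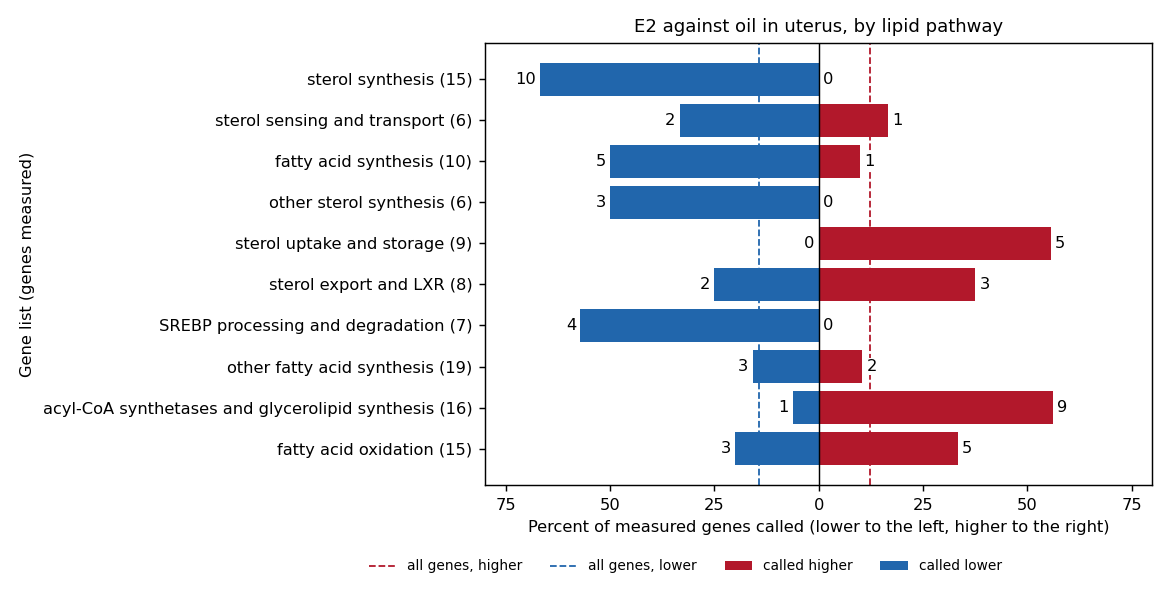
Percent of the measured genes of each lipid list called lower (blue, to the left) or higher (red, to the right) in E2 against oil uterus, with the number of genes beside each bar and dashed lines at the shares of all genes (14.3% lower and 12.4% higher). Sterol synthesis has 10 of 15 genes lower and 0 higher, and sterol uptake and storage has 5 of 9 higher and 0 lower.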

How the data were processed

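The authors deposited linear intensities of each probe set on each array, made with RMA per the submitters' processing notes, whose version is not given in the sources used here. Those intensities were log2 transformed. Of 35556 probe sets, 21789 named a single gene symbol in the platform annotation, and the probe set with the highest mean stood for each of 19938 genes, with no intensity filter. A model of 4 group means over all 12 arrays was fitted in limma 3.58.1 (R 4.3.3) with lmFit and moderated by eBayes. Two-sided p-values were adjusted by the Benjamini-Hochberg method across all 19938 genes, and adjusted values below 0.05 were called. The script was tested on simulated data. The members and gene lists were chosen with earlier results of these data known. All 31 members are named, and up to 3 genes of every other list by largest uterine change past the test. Alternatives were other scalings, probe set rules, an added constant of 16, a dim gene filter, variance models, array weights, smaller fits, replicate blocks and left-out arrays. The number of arrays limits the precision.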

Additional observations from a re-analysis of the deposited data

Results flagged for a closer look

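For 6 genes the effect of E2 differed between uterus and oviduct by the interaction test, given here as the uterine minus the oviductal log2 difference (3 arrays per group). The isoprenoid isomerase Idi1 differed by -1.58, with all uterine E2 arrays below the oil arrays and overlapping oviduct arrays. The elongase Elovl6 differed by -1.29 and the sterol demethylase Cyp51 by -0.63, also with overlap in oviduct only. For the polyunsaturated fatty acid desaturases Fads1 (-0.45) and Fads2 (-0.54) the E2 arrays lay below oil in uterus and above oil in oviduct, where the differences did not pass the test (adjusted p = 0.234 and 0.408). The elongase Elovl5 differed by 0.27 (adjusted p = 0.0484), passed the test in neither tissue (adjusted p = 0.20 in uterus and 0.321 in oviduct), and lost the call for the difference in 17 of 22 alternatives.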

How the results depend on the processing

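No direction of a called gene reversed under any alternative. The 17 uterine falls numbered 16 to 19 under the other settings and 11 to 17 with an array left out. The 2 uterine rises became 1 in the fit of the 6 arrays compared alone and 3 with array weights or without both oil replicate 3 arrays. They numbered 1 to 2 with an array left out. In the oviduct 1 gene rose, Insig1, after quantile normalisation and with array weights. For the difference between tissues, the 1 gene more positive in uterus became 0 after centring each array on its median, after quantile normalisation, with the probe set of highest variance, with the replicate block and without both oil replicate 3 arrays. It became 2 without dim genes, with the intensity trend and with array weights, and 0 to 1 with an array left out. The 5 genes more negative in uterus became 8 without dim genes or without both oil replicate 3 arrays, 10 with array weights and 4 to 8 with an array left out. In oil mice the 8 genes higher in oviduct numbered 6 to 9 with an array left out and 10 with array weights. The 8 lower there numbered 6 to 9 with an array left out. In E2 mice the 13 genes higher in oviduct numbered 10 to 13 with an array left out and 17 with array weights. The 1 gene lower in oviduct of E2 mice became 2 after quantile normalisation or in the smaller fit, 4 with array weights and 0 to 2 with an array left out. The labels do not say that equal replicate numbers share a mouse. Deviations from the group means correlated at r from -0.22 to 0.26 between same-numbered arrays of different groups. Between differently numbered arrays r was -0.28 to 0.26. The replicate block was therefore an alternative alone. With it 17 members fell and 2 rose in uterus, 0 were called in oviduct and 7 differed more negatively between tissues. The cause of these changes was not tested. No interaction could be computed within the 6 arrays of a single tissue. Signal limits the 16 genes with an array below the brightest Y-linked value, 8 of them below it on all arrays and Idi1 among the others.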

Other observations

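In the E2 uterus, many genes of a list of acyl-CoA activation and glycerolipid metabolism were higher, and those of fatty acid oxidation went both ways. Of 16 measured genes of the glycerolipid list, 9 rose and 1 fell by limma (62.5% called, against 26.7% of all genes), with a median log2 difference of 0.37. The risers were Gpam, Gpat3, Lpin1, Lpin3, Dgat1, Dgat2, Plin2, Pnpla2 and Lipe. Not all are synthesis genes, since Pnpla2 and Lipe encode lipases and Plin2 a coat protein of lipid droplets. Lipe is also among the adipocyte markers. The acyltransferase Gpat3 rose by 1.03 (SE 0.13, adjusted p = 0.000104), the phosphatidate phosphatase Lpin1 by 0.93 (SE 0.12) and Lpin3 by 0.74 (SE 0.07). Of 15 fatty acid oxidation genes, 5 rose (33.3%, against 12.4% of all genes) and 3 fell (20.0%, against 14.3%), with a median of 0.02. Pdk4, the kinase that spares glucose by inhibiting pyruvate dehydrogenase, rose by 1.28 (SE 0.12), the coactivator Ppargc1a by 1.04 (SE 0.07) and the medium-chain dehydrogenase Acadm by 0.37 (SE 0.06). In the oviduct 0 genes of either list were called by limma, against 0.291% of all genes. At an unadjusted p under 0.05, 5 of 15 oxidation genes and 1 of 16 genes of the glycerolipid list were higher. In both lists 0 were lower at that threshold, which 10.5% of all genes reached in either direction.

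Among the other fatty acid synthesis genes, 10 of 19 were higher and 4 lower in oviduct than in uterus of oil mice (73.7% called, against 38.7% of all genes). The elongase Elovl7 was 1.78 higher in oviduct (SE 0.13, adjusted p = 8.92e-07) and Hacd3 0.55 higher (SE 0.14), while Hsd17b12 was lower (-0.27, SE 0.10, adjusted p = 0.0459). Adipocyte markers were also higher in oviduct for 8 of 10 genes, epithelial markers for 10 of 11 and ciliated cell markers for 7 of 7. Stromal markers were lower for 8 of 10, endothelial markers for 5 of 6 and macrophage markers for 2 of 8. Of all genes 17.3% were higher and 21.5% lower. The part of these markers in the differences of the fatty acid genes was not tested.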
